A study of Homo sapiens with 24 samples.

Results

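NF-kB chemokines and cytokines are 10 genes whose transcription is known to answer to the transcription factor NF-kB, described here in human pancreatic ductal adenocarcinoma cells given 2 compounds aimed at energy metabolism. The members were taken by symbol from the count table of each line: CXCL8, CXCL1, CXCL2, CXCL3, CXCL5, CCL20, IL6, IL1A, IL1B and NFKBIA. All 10 were found, of 25168 genes in each table. The lines were BXPC3 and PANC1, both established from human pancreatic cancers. Cells of each line had 24 h of SR4 at 5 uM, lonidamine at 300 uM, the combination of both compounds, or vehicle. Each of these 8 groups had 3 libraries, 24 in all. SR4, a compound known by its code name, acts as a mitochondrial uncoupler, and lonidamine inhibits lactate export, pyruvate entry into mitochondria and respiratory complex II. The doses inside the combination were not given separately, so its comparisons with each compound alone assume that these were the same. The labels name no genetic change between the groups, and cells of every group were grown in low-glucose medium with serum.

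NF-kB dimers such as p50 with RELA are held in the cytoplasm by inhibitors, chief among them IkB-alpha, the product of NFKBIA. Signals from IL-1, toll-like and TNF receptors activate the IKK kinases, the inhibitor is degraded, and the freed dimers bind promoters of chemokine, cytokine and feedback genes. NFKBIA is itself a target, so new inhibitor ends the response. In pancreatic cancer this pathway is often active in the tumour cells themselves, and the CXC chemokines made there draw neutrophils through the receptor CXCR2.

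The members sit on 4 chromosomes, and the 5 CXC chemokine genes share a cluster on chromosome 4. In the gene annotation deposited with the counts, CXCL8 spans chr4:73740506-73743716 and CXCL1 chr4:73869393-73871242, both on the plus strand. CXCL5 (chr4:73995642-73998779), CXCL3 (chr4:74036589-74038807) and CXCL2 (chr4:74097035-74099293) follow on the minus strand. IL1A (chr2:112773915-112784590) and IL1B (chr2:112829751-112836903) are neighbours on the minus strand of chromosome 2, where CCL20 lies at chr2:227813842-227817564 on the plus strand. IL6 lies at chr7:22725884-22732002 on the plus strand and NFKBIA at chr14:35401511-35404749 on the minus strand. The RefSeq starts used for the promoter windows can differ from the ends of these spans.

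The promoters of 7 members are shown for the letters they share or lack: 5 CXC chemokine genes, of which CXCL1, CXCL2 and CXCL3 carry similar promoters, and the interleukin-1 pair. No result on expression rests on these letters. Each is the 300-base RefSeq window from 250 bases before the annotated start to 50 after it, 5′ to 3′ on the gene's own strand. Capitals mark the NF-kB pattern GGNNNTTCC, searched on both strands; no capitals means no match in the window.
CXCL8 (chr4:73740319-73740618, plus strand): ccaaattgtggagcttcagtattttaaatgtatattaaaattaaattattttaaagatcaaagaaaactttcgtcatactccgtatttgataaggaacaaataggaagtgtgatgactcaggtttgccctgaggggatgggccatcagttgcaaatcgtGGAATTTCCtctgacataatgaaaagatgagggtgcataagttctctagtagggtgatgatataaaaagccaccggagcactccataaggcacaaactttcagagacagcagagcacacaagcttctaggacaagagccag
CXCL1 (chr4:73869143-73869442, plus strand): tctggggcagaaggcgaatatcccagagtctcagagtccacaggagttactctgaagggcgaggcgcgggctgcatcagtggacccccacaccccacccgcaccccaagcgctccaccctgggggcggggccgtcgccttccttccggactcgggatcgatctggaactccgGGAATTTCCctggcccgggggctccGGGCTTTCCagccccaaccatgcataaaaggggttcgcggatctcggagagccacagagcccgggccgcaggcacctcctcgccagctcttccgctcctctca
CXCL2 (chr4:74099146-74099445, minus strand): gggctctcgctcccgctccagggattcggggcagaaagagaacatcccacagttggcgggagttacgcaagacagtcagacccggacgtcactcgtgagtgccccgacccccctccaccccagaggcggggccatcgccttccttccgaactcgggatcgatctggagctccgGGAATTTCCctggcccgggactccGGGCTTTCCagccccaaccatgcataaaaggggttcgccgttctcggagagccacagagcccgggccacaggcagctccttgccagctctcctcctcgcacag
CXCL3 (chr4:74038640-74038939, minus strand): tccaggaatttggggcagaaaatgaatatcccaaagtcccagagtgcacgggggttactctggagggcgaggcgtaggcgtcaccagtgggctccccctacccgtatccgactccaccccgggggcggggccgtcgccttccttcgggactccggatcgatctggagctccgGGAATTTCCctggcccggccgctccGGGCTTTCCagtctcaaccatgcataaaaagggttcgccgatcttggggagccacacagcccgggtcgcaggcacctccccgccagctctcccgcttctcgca
CXCL5 (chr4:73998628-73998927, minus strand): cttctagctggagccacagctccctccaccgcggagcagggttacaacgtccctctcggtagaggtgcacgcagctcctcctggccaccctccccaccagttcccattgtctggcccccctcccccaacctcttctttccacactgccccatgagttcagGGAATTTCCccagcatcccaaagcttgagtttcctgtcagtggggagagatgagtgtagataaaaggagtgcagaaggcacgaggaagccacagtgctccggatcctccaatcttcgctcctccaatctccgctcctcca
IL1A (chr2:112784444-112784743, minus strand): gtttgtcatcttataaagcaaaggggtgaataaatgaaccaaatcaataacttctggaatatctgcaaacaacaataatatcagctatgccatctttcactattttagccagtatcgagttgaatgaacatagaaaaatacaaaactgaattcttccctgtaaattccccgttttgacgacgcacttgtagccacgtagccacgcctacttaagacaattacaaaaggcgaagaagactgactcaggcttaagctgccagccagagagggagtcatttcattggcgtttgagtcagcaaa
IL1B (chr2:112836730-112837029, minus strand): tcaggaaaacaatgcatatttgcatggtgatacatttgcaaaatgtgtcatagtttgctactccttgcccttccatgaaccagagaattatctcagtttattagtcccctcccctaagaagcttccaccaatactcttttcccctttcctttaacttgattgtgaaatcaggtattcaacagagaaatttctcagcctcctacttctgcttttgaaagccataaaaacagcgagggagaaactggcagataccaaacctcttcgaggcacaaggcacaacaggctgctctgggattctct

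The pattern GGNNNTTCC was in 8 of the 10 member windows, against 20.1% of all 35116 windows, and it was absent from those of IL1A and IL1B. The letters ggaatttcc began 91 bases before the start of CXCL8, 78 before CXCL1 and CXCL3, 77 before CXCL2 and 90 before CXCL5. CXCL1, CXCL2 and CXCL3 each held a second match, gggctttcc, 53 bases before the start. The windows of CXCL1 and CXCL3 were identical at 82.5% of aligned bases, those of CXCL2 and CXCL3 at 73.7% and those of CXCL1 and CXCL2 at 69.8%. CXCL8 and CXCL5 were identical to the others and to each other at 43.0% to 52.3% of aligned bases. The AP-1 pattern TGANTCA, which does not overlap the NF-kB matches, was in the windows of CXCL8 and IL1A and in 7.71% of all windows. The letters TATAAA were in the windows of CXCL8, CCL20, IL1A and NFKBIA and in 11.5% of all windows. These matches describe letters in the reference and are not measured binding sites.

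BXPC3 libraries held 9142433 to 11470973 gene counts and those of PANC1 held 8873041 to 11822495. Levels are given as CPM, the counts scaled to a common library total, on which 3 counts came to 0.261 to 0.337 CPM in BXPC3 and to 0.247 to 0.336 CPM in PANC1. Nothing in the labels says whether the 3 libraries of a group came from separate cultures, and the p-values then reflect only how these libraries spread, which may be technical. Ductal epithelial markers summed to a high level in both lines, though not every marker was high. Their summed level over 9 genes was 5029 to 5193 CPM with SR4, 4577 to 4749 CPM with lonidamine, 3616 to 3651 CPM with the combination and 6125 to 6638 CPM with vehicle in BXPC3. In PANC1 the same sum was 1969 to 2225, 1096 to 1206, 884 to 928 and 3802 to 3975 CPM in the same order of groups. The highest of these markers with vehicle was KRT7 in BXPC3 (1857 CPM) and KRT8 in PANC1 (1905 CPM). CFTR, also on this list, had no count in PANC1 with vehicle or with lonidamine. Of 14 immune markers, 3 to 6 had no count in a BXPC3 group and 7 to 10 in a PANC1 group. Their sum was 22.7 to 41.2 CPM in BXPC3 and 122 to 222 CPM in PANC1, and CD68, a lysosomal protein, was the highest in every group. The 10 fibroblast markers summed to 22.7 to 36.1 CPM in BXPC3, and in PANC1 to 13.5 to 36.4 CPM with the treatments and 85.7 to 91.7 CPM with vehicle, mostly COL1A1. The part of these marker shifts in the member results was not tested.

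In BXPC3 the 3 most abundant CXC chemokines fell with every treatment. CXCL8, the interleukin-8 gene, had 94.1, 84.7 and 90.8 CPM with SR4, 99.6, 99.0 and 105 CPM with lonidamine, 65.4, 59.7 and 54.9 CPM with the combination, and 218, 229.6 and 224 CPM with vehicle. CXCL1, a CXCR2 ligand, had 46.1, 45.7 and 44.8 CPM with SR4, 45.6, 49.3 and 47.3 CPM with lonidamine, 38.1, 36.9 and 34.9 CPM with the combination, and 168, 161 and 168 CPM with vehicle. CXCL5, another CXCR2 ligand, had 87.6, 83.1 and 84.7 CPM with SR4, 64.4, 68.8 and 68.9 CPM with lonidamine, 87.3, 75.8 and 75.7 CPM with the combination, and 288, 298 and 279 CPM with vehicle. In each of these genes every treated library lay far below every vehicle library. The combination was lowest for CXCL8 and CXCL1, and lonidamine was lowest for CXCL5.

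CXCL1 fell with each treatment, with log2 changes of -1.86 ± 0.05 with SR4, -1.80 ± 0.05 with lonidamine and -2.17 ± 0.05 with the combination (estimate ± SE, 3 libraries against 3). In the quasi-likelihood test of edgeR, adjusted by Benjamini-Hochberg over all genes tested, the adjusted p for CXCL1 was 1.02e-21, 1.39e-21 and 3.45e-23 in the same order. CXCL5 also fell each time, with log2 changes of -1.76 ± 0.05, -2.10 ± 0.05 and -1.86 ± 0.05 with SR4, lonidamine and the combination. For CXCL8 the log2 changes were -1.32 ± 0.05, -1.15 ± 0.05 and -1.90 ± 0.05, and for both genes the largest of these adjusted p-values was 3.36e-17. CXCL1 with the combination was thus 4.51-fold lower than with vehicle, the largest fall of any member in the 3 comparisons with vehicle. In these bulk libraries fewer cells making a transcript and less of it per cell cannot be told apart.

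**Figure D1:**
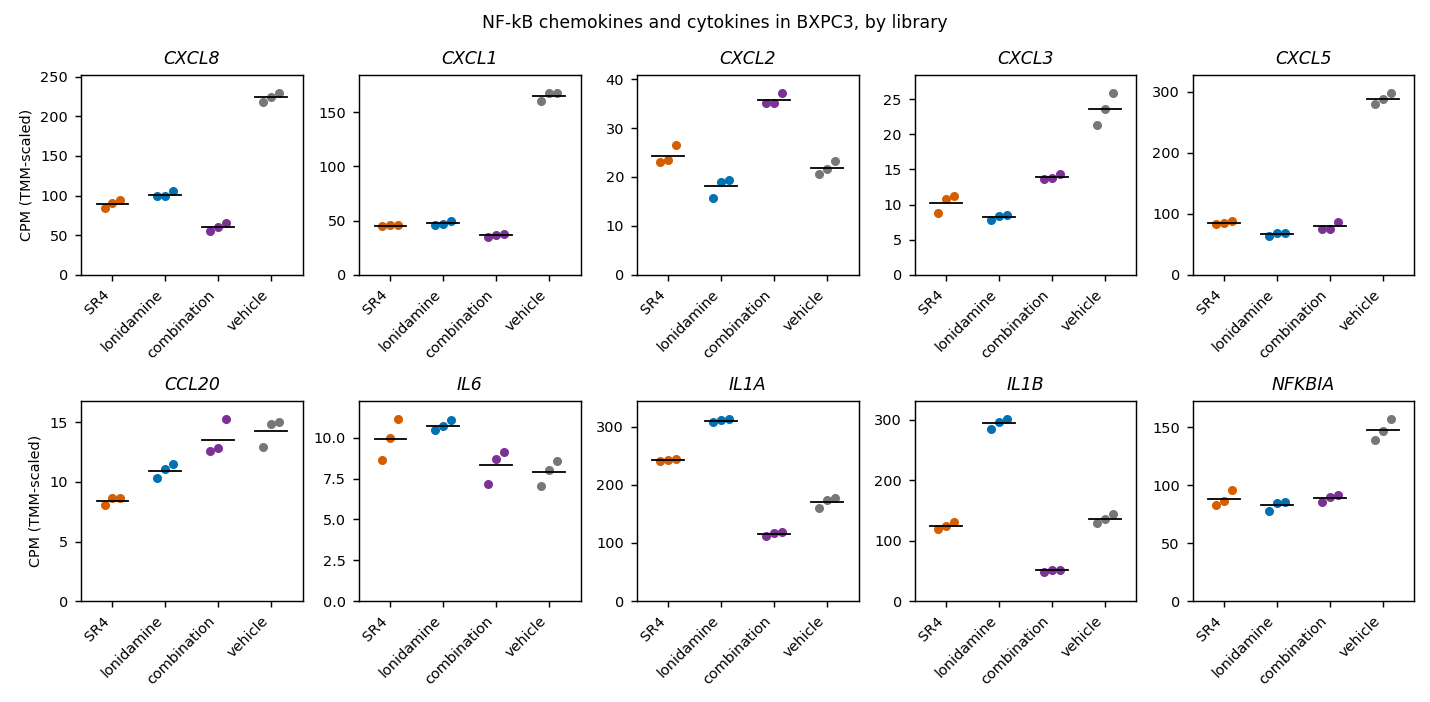
Level of each of the 10 members in BXPC3, in CPM on a linear axis from 0, by treatment group; points are the 3 libraries of a group and lines are means. CXCL8, CXCL1, CXCL3, CXCL5 and NFKBIA lay below vehicle in every treated library, while IL1A lay above vehicle with each single compound and below it with the combination.

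CXCL2 and CXCL3, 2 further CXCR2 ligands, differed from each other. CXCL3 fell with every treatment, as CXCL1 did, and CXCL2 did not. CXCL3 had 10.8, 8.85 and 11.2 CPM with SR4, 7.79, 8.55 and 8.44 CPM with lonidamine, 13.8, 14.4 and 13.7 CPM with the combination, and 23.5, 25.9 and 21.4 CPM with vehicle. It was below vehicle in every treated library, least so with the combination. It fell with each, with log2 changes of -1.19 ± 0.10 with SR4, -1.51 ± 0.11 with lonidamine and -0.76 ± 0.10 with the combination (edgeR quasi-likelihood test, adjusted p = 1.28e-10, 2.83e-12 and 2.05e-07). CXCL2 had 26.5, 23.1 and 23.5 CPM with SR4, 19.0, 15.7 and 19.5 CPM with lonidamine, 35.2, 37.2 and 35.0 CPM with the combination, and 21.6, 23.2 and 20.7 CPM with vehicle. The combination libraries stood above all others, those of lonidamine stood just below vehicle, and those of SR4 overlapped vehicle. CXCL2 rose by 0.72 ± 0.08 log2 with the combination (adjusted p = 1.79e-08 by the same test). Its change with SR4 was 0.16 ± 0.09 log2 (95% interval -0.02 to 0.34, adjusted p = 0.1035). With lonidamine it fell by 0.27 ± 0.09 log2 (adjusted p = 0.01118), a call lost without lonidamine replicate 2 (adjusted p = 0.1036) and without vehicle replicate 2 (adjusted p = 0.05604).

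The transcripts of CXCL1, CXCL2 and CXCL3 share stretches of up to 97 identical bases. Of the 50-base windows of each transcript, 0.573% to 5.73% occurred in one of the other two. The sources used here do not say how reads matching more than one gene were counted, so the levels of these 3 genes are uncertain to an extent that was not tested. CXCL2 shared 5.13% of its windows with CXCL1. CXCL3 shared 0.585% of its windows with CXCL1 and 5.26% with CXCL2. On average CXCL1 was the most abundant of them, though CXCL2 was near it with the combination in BXPC3. Where CXCL2 was well below CXCL1, reads shared by both would weigh more in the level of CXCL2.

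CCL20, the ligand of CCR6 that draws dendritic and T helper cells, fell with each single compound. Its 3 libraries ranged over 8.04 to 8.65 CPM with SR4, 10.3 to 11.5 CPM with lonidamine, 12.6 to 15.3 CPM with the combination, and 12.96 to 15.01 CPM with vehicle. It fell, with log2 changes of -0.76 ± 0.12 with SR4 and -0.38 ± 0.11 with lonidamine (edgeR quasi-likelihood test, adjusted p = 2.44e-06 and 0.004012). The combination overlapped vehicle, with a change of -0.07 ± 0.11 log2 (95% interval -0.30 to 0.15, adjusted p = 0.5446).

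With lonidamine the interleukin genes IL1A, IL1B and IL6 rose while CXCL8, CXCL1 and CXCL5 fell, but with the combination IL1A and IL1B also fell. IL1A, which encodes a cytokine stored in epithelial cells and released as an alarm signal, had 242, 245 and 243 CPM with SR4, 307, 311 and 313 CPM with lonidamine, 119, 117 and 113 CPM with the combination, and 159.5, 175 and 177 CPM with vehicle. The 4 groups did not overlap, with each single compound above vehicle and the combination below it. IL1A rose by 0.52 ± 0.04 log2 with SR4 and by 0.87 ± 0.04 log2 with lonidamine, and fell by 0.55 ± 0.04 log2 with the combination (edgeR quasi-likelihood test, adjusted p = 1.17e-11, 1.26e-16 and 5.51e-12).

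IL1B, which encodes the precursor of secreted interleukin-1 beta, had 131, 125 and 119 CPM with SR4, 297, 301 and 285 CPM with lonidamine, 51.4, 48.7 and 51.9 CPM with the combination, and 128, 136 and 144 CPM with vehicle. Lonidamine libraries were about 2.16-fold above vehicle, combination libraries 2.69-fold below it, and SR4 libraries overlapped it. It rose by 1.11 ± 0.05 log2 with lonidamine and fell by 1.43 ± 0.05 log2 with the combination (adjusted p = 8.17e-18 and 8.50e-19, edgeR quasi-likelihood test). The log2 change with SR4 was -0.13 ± 0.05 (adjusted p = 0.01966), and that call was lost without SR4 replicate 2 (adjusted p = 0.0516), without the unnumbered SR4 library (0.1283) and without vehicle replicate 3 (0.1298).

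IL6, which encodes the cytokine that signals through the gp130 receptor, was the least abundant member in vehicle. Its libraries ranged over 8.65 to 11.2 CPM with SR4, 10.5 to 11.1 CPM with lonidamine, 7.18 to 9.14 CPM with the combination, and 7.04 to 8.61 CPM with vehicle. It rose by 0.45 ± 0.13 log2 with lonidamine (edgeR quasi-likelihood test, adjusted p = 0.004134). The rise with SR4 was 0.33 ± 0.13 log2 (adjusted p = 0.02969). That call was lost in DESeq2's Wald test (adjusted p = 0.09287) and without SR4 replicate 2 (0.05341), the unnumbered SR4 library (0.167), vehicle replicate 1 (0.1362) or vehicle replicate 2 (0.05242). With the combination the change was 0.08 ± 0.14 log2 (95% interval -0.21 to 0.37, adjusted p = 0.6062).

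NFKBIA, the inhibitor, fell by similar amounts with each treatment. It had 95.4, 86.7 and 82.7 CPM with SR4, 85.3, 84.7 and 77.7 CPM with lonidamine, 85.8, 91.1 and 90.03 CPM with the combination, and 139, 157 and 146 CPM with vehicle. Every treated library lay below every vehicle library, and the treated groups overlapped each other except that the combination lay just above lonidamine. The log2 changes were -0.74 ± 0.05 with SR4, -0.83 ± 0.06 with lonidamine and -0.73 ± 0.06 with the combination (edgeR quasi-likelihood test, adjusted p = 4.08e-12, 3.95e-13 and 3.82e-12).

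Counted over the 10 members in BXPC3, 2 rose and 7 fell with SR4, against 33.4% of all genes tested higher and 33.9% lower. With lonidamine 3 rose and 7 fell, against 34.8% and 32.7% of all genes. With the combination 1 rose and 7 fell, against 39.7% and 39.5%. The median log2 change over the members was -0.75, -0.61 and -0.74 with SR4, lonidamine and the combination, and over all genes tested it was 0.01, 0.03 and -0.00. The 3 comparisons share their vehicle libraries.

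**Figure D2:**
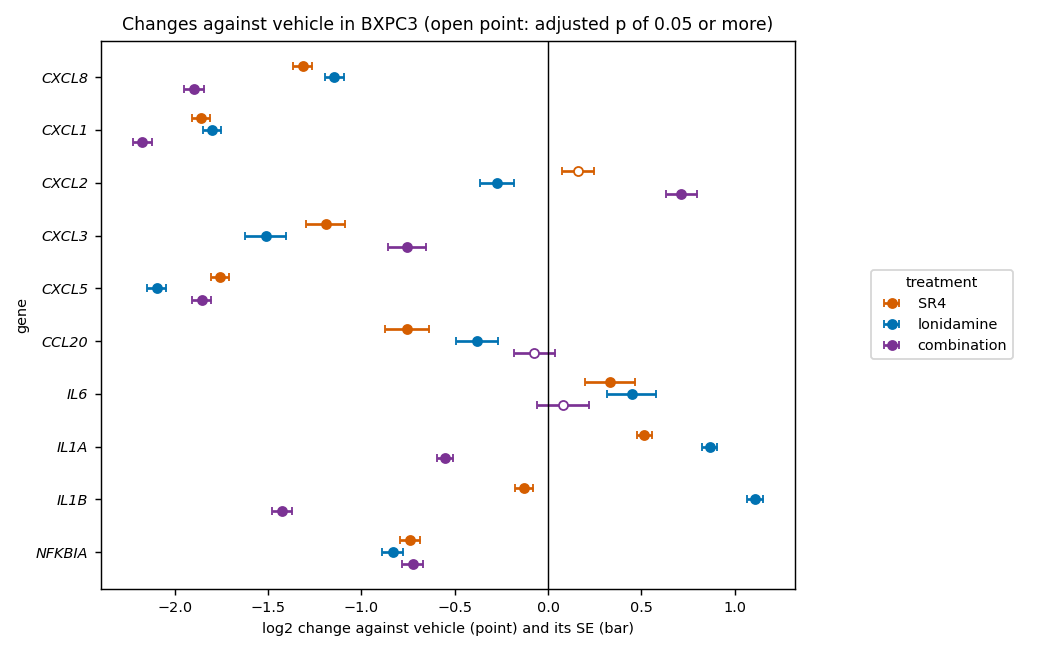
Log2 change of each member against vehicle in BXPC3 for SR4, lonidamine and the combination; points are edgeR estimates, bars are 1 SE, and open points did not pass an adjusted p of 0.05. The CXCL8, CXCL1, CXCL5 and NFKBIA points lie left of 0 for every treatment, and IL1B ranges between -1.43 with the combination and 1.11 with lonidamine.

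The order of the members by level per kilobase of gene length, which allows levels of different genes to be compared, changed with treatment in BXPC3. With SR4, IL1A led at 115 ± 0.835 CPM per kb, and IL1B, CXCL8, NFKBIA and CXCL1 followed between 35.2 and 40.4 CPM per kb with neighbours that overlapped. With lonidamine IL1A (147 ± 1.38 CPM per kb) and IL1B (95.2 ± 2.73) stood apart at the top. With the combination IL1A (54.8 ± 1.42 CPM per kb) and NFKBIA (37.6 ± 1.19) led, and IL1B was seventh. With vehicle the order was CXCL1 (128 ± 3.25 CPM per kb), CXCL5 (114 ± 3.79), CXCL8 (98.6 ± 2.49), IL1A (80.4 ± 4.41), NFKBIA (62.2 ± 3.86), IL1B (44.1 ± 2.56), CXCL2 (14.6 ± 0.857), CCL20 (10.7 ± 0.853), CXCL3 (10.6 ± 1.02) and IL6 (3.82 ± 0.384; SD, n = 3 each). In vehicle CCL20 and CXCL3 were the only neighbours whose libraries overlapped.

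The members also differed in how the combination compared with each compound alone in BXPC3. Against SR4, the combination was lower for CXCL8 (-0.58 ± 0.06 log2), CXCL1 (-0.31 ± 0.06), IL1A (-1.07 ± 0.04) and IL1B (-1.30 ± 0.05), and higher for CXCL2 (0.55 ± 0.08), CXCL3 (0.44 ± 0.12) and CCL20 (0.68 ± 0.12). These were 3 members higher and 4 lower, against 30.3% and 30.5% of all genes tested. CXCL5 (-0.10 ± 0.05, 95% interval -0.21 to 0.02), IL6 (-0.25 ± 0.14, -0.53 to 0.03) and NFKBIA (0.01 ± 0.06, -0.11 to 0.13) did not pass. Without combination replicate 1 CXCL5 passed (adjusted p = 0.009063), and without SR4 replicate 1 IL6 passed (adjusted p = 0.04937, edgeR quasi-likelihood test).

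Against lonidamine, the combination was 5.80-fold lower for IL1B (-2.54 ± 0.05 log2) and 2.68-fold lower for IL1A (-1.42 ± 0.04), and it was lower for CXCL8 (-0.75 ± 0.06), CXCL1 (-0.37 ± 0.06) and IL6 (-0.37 ± 0.14). It was higher for CXCL2 (0.99 ± 0.09 log2), CXCL3 (0.76 ± 0.12), CXCL5 (0.24 ± 0.06) and CCL20 (0.31 ± 0.12). Thus 4 members were higher and 5 lower, against 30.1% and 30.7% of all genes. NFKBIA did not pass, at 0.11 ± 0.06 log2 (95% interval -0.01 to 0.23, adjusted p = 0.1206 by edgeR's quasi-likelihood test). The call of CCL20 (adjusted p = 0.02535) was lost without lonidamine replicate 3 (0.08229) or combination replicate 1 (0.1622). That of IL6 (adjusted p = 0.0222) was lost without lonidamine replicate 2 (0.06178) or combination replicate 3 (0.1229). Both were also lost in DESeq2's Wald test (adjusted p = 0.06664 and 0.06709).

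In BXPC3 the combination departed from the sum of the single changes in all 10 members, and 49.2% of all genes tested did so. This departure is the SR4 by lonidamine interaction, the log2 change with the combination minus the sum of both single changes. It was above 0 in 7 members, which are the 5 CXC chemokines, CCL20 and NFKBIA. CXCL5 had the largest, 2.001 ± 0.075 log2, where the single changes summed to -3.86 and the combination gave -1.86. CXCL3 had 1.95 ± 0.16 and CXCL1 had 1.49 ± 0.08, CCL20 had 1.06 ± 0.17, NFKBIA had 0.85 ± 0.08, CXCL2 had 0.83 ± 0.12 and CXCL8 had 0.56 ± 0.08. In the 3 interleukin genes it was below 0. IL1B had -2.41 ± 0.07, IL1A had -1.94 ± 0.06 and IL6 had -0.70 ± 0.19. Adjusted p-values of the 10 interactions ran between 4.60e-20 for IL1B and 0.003372 for IL6 in edgeR's quasi-likelihood test.

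**Figure D3:**
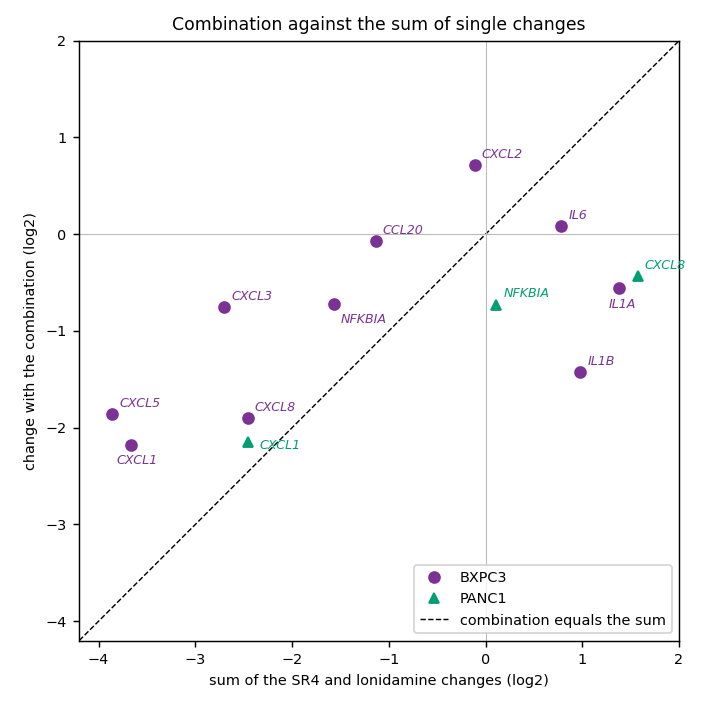
Log2 change with the combination (vertical axis) against the sum of the log2 changes with SR4 and lonidamine alone (horizontal axis), for 10 members in BXPC3 (circles) and 3 in PANC1 (triangles); the dashed line marks equality. The BXPC3 chemokines, CCL20 and NFKBIA lie above the line, and IL6, IL1A, IL1B and the PANC1 points of CXCL8 and NFKBIA lie below it.

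Over the 12 BXPC3 libraries the members formed sets whose log2 CPM moved alike. Pearson's r was 0.96 for CXCL1 with CXCL8, 0.96 for CXCL1 with CXCL5, 0.98 for CXCL5 with NFKBIA and 0.90 for CXCL3 with CXCL5. It was 0.92 for IL1A with IL1B, and -0.96 for CXCL2 with IL1B. The 12 libraries are 3 replicates of 4 groups, so these values describe the group means and carry no test. Among 9715 genes that are not members, those with the pattern most like CXCL8 were TOMM34, HDAC3, LHFP, FILIP1L and IFIT2. Their smaller Pearson's r of the 2 lines, over 12 libraries each, was 0.90, 0.87, 0.83, 0.81 and 0.78. They are the top of a ranking, so their high values follow in part from the selection. CXCL8 had only 7 to 27 counts in a PANC1 library, and this likeness was not tested either.

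In PANC1 most members were near or at the detection floor. CXCL2, CXCL3, CXCL5, CCL20, IL6, IL1A and IL1B had at most 3 counts in any library and 34 counts together over the 12 libraries, and IL1B had 0 in all 12. These 7 did not pass the filter on low counts and were not tested within PANC1. In vehicle, all 10 members were lower in PANC1 than in BXPC3, and 84.3% of all genes tested differed between the lines in either direction. The 7 members entered the fit over both lines through their BXPC3 counts alone. Their lower level in PANC1 was thus fixed by the filter, and the count of 10 is not a result of the test. The PANC1 level over the BXPC3 level was 0.00523 for CXCL8 (exact 95% counting interval 0.00357 to 0.00739, 32 counts in PANC1), 0.0406 for CXCL1 (0.0349 to 0.0471) and 0.299 for NFKBIA (0.281 to 0.319). For CXCL5 the ratio rested on 1 PANC1 count and was 0.000127 (3.21e-06 to 0.000707). IL1A, IL1B and IL6 had 0 counts in the PANC1 vehicle libraries, and the upper limits of the same interval were 0.000793, 0.000990 and 0.0172 of the BXPC3 level. These intervals cover counting error only, and the ratios used library totals scaled within each line. In the edgeR fit over both lines, with common scaling, the ratio was 0.278 for NFKBIA, 0.0379 for CXCL1 and 0.00492 for CXCL8.

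The 3 members with enough counts in PANC1 each took a course of their own there. CXCL8 had 2.30, 2.66 and 2.38 CPM with SR4, 1.20, 1.57 and 2.22 CPM with lonidamine, 0.614, 1.08 and 0.934 CPM with the combination, and 0.743, 1.68 and 1.11 CPM with vehicle. Its SR4 libraries lay above every vehicle library, and the other groups overlapped vehicle. CXCL8 rose by 1.06 ± 0.33 log2 with SR4 (edgeR quasi-likelihood test, adjusted p = 0.005237). Its change was 0.52 ± 0.34 log2 with lonidamine (95% interval -0.19 to 1.22, adjusted p = 0.1779) and -0.43 ± 0.40 log2 with the combination (95% interval -1.25 to 0.39, adjusted p = 0.3163). At 28 to 70 counts per group these intervals are wide.

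CXCL1 had 3.04, 3.41 and 3.10 CPM with SR4, 2.77, 2.71 and 2.30 CPM with lonidamine, 1.67, 0.880 and 1.96 CPM with the combination, and 7.22, 5.94 and 7.00 CPM with vehicle in PANC1. Every treated library lay below every vehicle library. CXCL1 fell each time, with log2 changes of -1.08 ± 0.20 with SR4, -1.37 ± 0.20 with lonidamine and -2.14 ± 0.23 with the combination (edgeR quasi-likelihood test, adjusted p = 3.43e-05, 1.12e-06 and 1.84e-09). NFKBIA had 50.4, 47.7 and 43.3 CPM with SR4, 44.9, 41.9 and 46.1 CPM with lonidamine, 24.5, 27.0 and 28.2 CPM with the combination, and 46.6, 40.02 and 45.2 CPM with vehicle. The combination libraries stood below all others, which overlapped. NFKBIA fell by 0.73 ± 0.08 log2 with the combination (adjusted p = 2.01e-09, edgeR quasi-likelihood test). It changed by 0.10 ± 0.07 log2 with SR4 (95% interval -0.05 to 0.25) and by 0.01 ± 0.07 with lonidamine (-0.14 to 0.16), neither of which passed.

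Of the 3 members tested in PANC1, 1 was higher and 1 lower with SR4, against 35.0% and 36.7% of all genes tested. With lonidamine 0 were higher and 1 lower, against 35.0% and 34.2%, and with the combination 0 were higher and 2 lower, against 40.1% and 40.9%. Since low counts kept 7 members out of the test, these counts do not describe the 10. Against SR4 alone the combination was lower for all 3, with log2 changes of -1.48 ± 0.34 for CXCL8, -1.07 ± 0.26 for CXCL1 and -0.83 ± 0.08 for NFKBIA, where 33.2% of all genes were higher and 33.4% lower. Against lonidamine all 3 were lower again, with log2 changes of -0.95 ± 0.35 for CXCL8, -0.77 ± 0.27 for CXCL1 and -0.74 ± 0.08 for NFKBIA, with 37.1% of all genes higher and 37.5% lower. The CXCL8 call against lonidamine (edgeR adjusted p = 0.01633) was lost without lonidamine replicate 3 (0.1301) or combination replicate 1 (0.09259), and that of CXCL1 (0.01058) without combination replicate 2 (0.0853). The SR4 by lonidamine interaction in PANC1 was -2.001 ± 0.48 log2 for CXCL8 and -0.84 ± 0.11 for NFKBIA. For CXCL1 it was 0.31 ± 0.34 (95% interval -0.39 to 1.01) and did not pass. Of all genes tested, 60.9% passed this test.

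**Figure D4:**
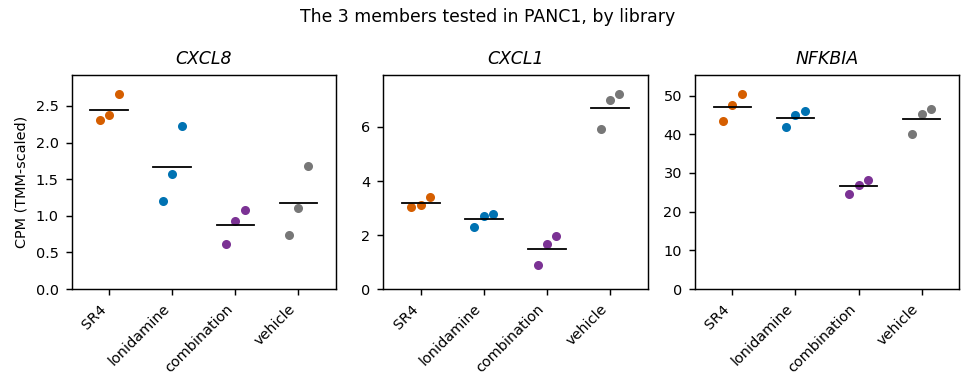
Level of CXCL8, CXCL1 and NFKBIA in PANC1, in CPM on a linear axis from 0, by treatment group; points are the 3 libraries of a group and lines are means. CXCL8 was highest with SR4, CXCL1 was below vehicle in every treated library, and NFKBIA was below vehicle with the combination alone.

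The responses of the lines were compared in 1 fit over all 24 libraries. The SR4 response of CXCL8 was 2.37 ± 0.30 log2 higher in PANC1 than in BXPC3 (edgeR quasi-likelihood test, adjusted p = 1.37e-08), a rise in PANC1 set against a fall in BXPC3. That of NFKBIA was 0.83 ± 0.09 log2 higher and that of CXCL1 0.78 ± 0.18 log2 higher (adjusted p = 9.35e-10 and 3.54e-04). IL6 also passed, at an adjusted p of 0.04745, but it had 5 counts in PANC1 with SR4 and 0 with vehicle, and leaving out single libraries took the adjusted p to as much as 0.1492. Thus 4 members passed, against 51.2% of all genes. The 7 members with at most 3 counts in any PANC1 library, IL6 among them, had too few counts there to decide whether their responses differed. The counts of members passing, for SR4 and for the other treatments, therefore do not describe the whole set. For lonidamine 3 passed, against 41.8% of all genes, with CXCL8 1.70 ± 0.31 log2 and NFKBIA 0.88 ± 0.09 log2 higher in PANC1. The third was CXCL1, at 0.46 ± 0.18 log2 and an adjusted p of 0.04705. This call was lost without any single library of those groups but lonidamine replicate 2 of BXPC3, with adjusted p between 0.0502 and 0.1625. For the combination CXCL8 alone passed, 1.43 ± 0.39 log2 higher in PANC1 (adjusted p = 0.001628), against 61.9% of all genes. The combination response differed between PANC1 and BXPC3 by -0.01 ± 0.21 log2 for CXCL1 (95% interval -0.44 to 0.43) and by -0.04 ± 0.10 log2 for NFKBIA (-0.24 to 0.16).

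Other genes of the pathway are described by lists, and 33.4%, 34.8% and 39.7% of all genes tested in BXPC3 were higher with SR4, with lonidamine and with the combination, and 33.9%, 32.7% and 39.5% lower. In PANC1 35.0%, 35.0% and 40.1% were higher and 36.7%, 34.2% and 40.9% lower. No list was tested as a set, and nothing is read from a list's counts beyond these shares. All triplets of values that follow stand in the order SR4, lonidamine, combination. Of 15 genes for subunits and kinases in BXPC3, 3 rose and 6 fell with SR4, 4 rose and 5 fell with lonidamine, and 8 rose and 4 fell with the combination, with median log2 changes of -0.08, 0.01 and 0.17. RELA, the activating subunit, averaged 130.1 ± 3.05, 123 ± 0.654, 176 ± 5.43 and 98.3 ± 3.49 CPM with SR4, lonidamine, the combination and vehicle (SD, n = 3 each), and it rose by 0.40 ± 0.04, 0.32 ± 0.04 and 0.84 ± 0.04 log2 with the 3 treatments in that order. NFKB1, which encodes the p50 precursor and is itself a target, averaged 187 ± 1.04, 149.8 ± 6.70, 129.7 ± 5.94 and 225 ± 8.60 CPM in the same groups and fell, with log2 changes of -0.26 ± 0.04, -0.59 ± 0.04 and -0.79 ± 0.04. TAB3, an adaptor of the kinase TAK1, rose by 0.53 ± 0.06, 0.86 ± 0.06 and 1.02 ± 0.06 log2. In PANC1 9, 7 and 10 of the 15 rose and 3 fell with each treatment. RELA rose there by 0.64 ± 0.04, 0.11 ± 0.04 and 1.05 ± 0.04 log2, and MAP3K14, the kinase NIK of the alternative pathway, fell, with log2 changes of -0.75 ± 0.04, -1.02 ± 0.04 and -1.61 ± 0.05. For all of the lists that follow, too, the test was edgeR's with adjustment over all genes tested, and the lists overlap in the genes IL1R1, IL1RAP and ZC3H12A.

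Of 14 genes for other inhibitors and feedback proteins in BXPC3, 4 rose and 6 fell with SR4, 4 rose and 6 fell with lonidamine, and 6 rose and 5 fell with the combination, with median log2 changes of -0.05, 0.02 and 0.01. TNFAIP3, the feedback enzyme A20, averaged 172 ± 8.14, 193 ± 8.27, 91.5 ± 5.595 and 247 ± 13.3 CPM with SR4, lonidamine, the combination and vehicle (SD, n = 3 each). It fell, with log2 changes of -0.53 ± 0.05, -0.36 ± 0.05 and -1.43 ± 0.05, while CYLD, a deubiquitinase that restrains the pathway, rose by 0.51 ± 0.06, 0.33 ± 0.06 and 0.87 ± 0.06 log2. In PANC1 6 of the 14 rose with each treatment and 3, 5 and 5 fell with SR4, lonidamine and the combination. NFKBIB, a further IkB inhibitor, rose there by 0.71 ± 0.04, 0.19 ± 0.04 and 1.29 ± 0.04 log2.

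Of 23 other NF-kB target genes in BXPC3, 4, 4 and 6 rose and 15, 16 and 14 fell, with median log2 changes of -0.21, -0.50 and -0.41, against 0.01, 0.03 and -0.00 over all genes. TNFAIP2, a TNF-induced gene, averaged 258 ± 16.3, 121 ± 2.63, 102 ± 5.13 and 517 ± 25.5 CPM with SR4, lonidamine, the combination and vehicle (SD, n = 3 each), and fell, with log2 changes of -1.003 ± 0.04, -2.09 ± 0.05 and -2.34 ± 0.05. SOD2, the mitochondrial superoxide dismutase, changed by 0.97 ± 0.03, 0.07 ± 0.03 and 1.26 ± 0.03 log2, of which the lonidamine value did not pass (adjusted p = 0.06839, edgeR). MMP9, a matrix protease, rose with SR4 and fell with lonidamine and the combination, with log2 changes of 1.13 ± 0.04, -0.75 ± 0.05 and -0.74 ± 0.05. IER3, an early response gene, fell with SR4 and rose with lonidamine and the combination, with -0.30 ± 0.06, 0.998 ± 0.05 and 1.36 ± 0.05. In PANC1 5 of 17 tested rose and 7 fell with SR4, 10 rose and 3 fell with lonidamine, and 3 rose and 11 fell with the combination. TNFAIP2 fell there, with log2 changes of -1.37 ± 0.05, -2.42 ± 0.06 and -4.03 ± 0.07, and PLAU, the urokinase gene, rose with lonidamine and fell with SR4 and the combination, with -0.17 ± 0.04, 0.71 ± 0.04 and -2.50 ± 0.04.

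Of 15 other chemokine genes 9 were tested in BXPC3, and 7 fell with SR4 and 8 with each of lonidamine and the combination, and 1 rose each time. Their median log2 change was -1.09, -2.34 and -3.11. CXCL10, a CXCR3 ligand induced by interferon, averaged 13.2 ± 0.46, 3.50 ± 0.358, 1.15 ± 0.0674 and 78 ± 7.05 CPM with SR4, lonidamine, the combination and vehicle (SD, n = 3 each), with log2 changes of -2.56 ± 0.08, -4.47 ± 0.11 and -6.07 ± 0.13. CXCL11, also a CXCR3 ligand, averaged 11.5 ± 0.908, 4.55 ± 1.09, 0.891 ± 0.304 and 39.4 ± 0.851 CPM and fell, with log2 changes of -1.77 ± 0.10, -3.11 ± 0.12 and -5.45 ± 0.17. In PANC1, where 5 were tested, 0, 1 and 0 rose and 1, 1 and 3 fell. There CCL2, a monocyte chemokine, fell, with log2 changes of -1.20 ± 0.12, -1.52 ± 0.12 and -2.95 ± 0.15, and CX3CL1, fractalkine, rose with lonidamine and fell with the combination, with 0.05 ± 0.09, 2.17 ± 0.08 and -1.52 ± 0.11, of which the SR4 value did not pass.

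Among other cytokines and growth factors in BXPC3, 3 of 14 tested rose and 6 fell with SR4, 4 rose and 8 fell with lonidamine, and 5 rose and 6 fell with the combination. IL11, which like IL6 signals through gp130, averaged 8.91 ± 0.534, 10.04 ± 1.16, 29.2 ± 1.89 and 1.48 ± 0.87 CPM with SR4, lonidamine, the combination and vehicle (SD, n = 3 each) and rose by 2.60 ± 0.22, 2.77 ± 0.22 and 4.31 ± 0.18 log2. TSLP, an epithelial cytokine, rose by 1.70 ± 0.18, 0.89 ± 0.21 and 2.46 ± 0.17 log2. CSF1, the macrophage growth factor, fell, with log2 changes of -0.16 ± 0.06, -1.55 ± 0.07 and -1.29 ± 0.06. In PANC1, of 7 tested, 3, 1 and 2 rose and 1, 3 and 3 fell with SR4, lonidamine and the combination. CSF1 fell there, with log2 changes of -0.98 ± 0.05, -1.15 ± 0.05 and -3.97 ± 0.08, and LIF, a further gp130 cytokine, rose by 1.28 ± 0.08, 0.94 ± 0.08 and 0.36 ± 0.08 log2.

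Receptors for the members were measured too. IL6R, the interleukin-6 receptor, averaged 25.6 ± 1.04, 28 ± 2.87, 55.8 ± 2.17 and 12.4 ± 0.246 CPM with SR4, lonidamine, the combination and vehicle in BXPC3 (SD, n = 3 each) and rose by 1.04 ± 0.09, 1.18 ± 0.09 and 2.17 ± 0.08 log2. In PANC1 it fell with SR4 and the combination, with log2 changes of -1.43 ± 0.14, 0.17 ± 0.11 and -1.87 ± 0.14, of which the lonidamine value did not pass. IL6ST, which encodes gp130, rose with every treatment in both lines, by 0.38 ± 0.05, 0.69 ± 0.05 and 0.85 ± 0.05 log2 in BXPC3 and by 0.33 ± 0.04, 0.39 ± 0.04 and 0.31 ± 0.04 log2 in PANC1. IL1R1, the interleukin-1 receptor, fell with SR4 and the combination in BXPC3, with log2 changes of -0.53 ± 0.10, 0.04 ± 0.09 and -1.02 ± 0.11, of which the lonidamine value did not pass. In BXPC3 6 of 10 receptor and decoy genes were tested, of which 2, 3 and 2 rose and 2, 1 and 4 fell with SR4, lonidamine and the combination; in PANC1, of 5 tested, 2, 3 and 3 rose and 2, 0 and 2 fell. Of 16 genes of IL-1, toll-like and TNF receptor signalling in BXPC3, 5, 6 and 6 rose and 7, 5 and 8 fell, among them BIRC3, an NF-kB target, with log2 changes of -0.79 ± 0.06, -1.09 ± 0.06 and -0.46 ± 0.06. In PANC1, of 13 tested, 5, 8 and 5 rose and 5, 3 and 6 fell, among them MYD88, the shared adaptor of IL-1 and toll-like receptors, with log2 changes of -1.69 ± 0.11, -0.52 ± 0.09 and -2.15 ± 0.11.

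A list of 14 genes held AP-1, ATF and C/EBP factors and EGR1, some of which act with NF-kB on chemokine promoters. Of these, 9, 9 and 11 rose in BXPC3 and 2, 3 and 1 fell, with median log2 changes of 0.49, 0.41 and 0.67. DDIT3, the stress factor CHOP, averaged 118 ± 1.98, 58.3 ± 3.94, 198 ± 4.52 and 8.74 ± 2 CPM with SR4, lonidamine, the combination and vehicle (SD, n = 3 each), with log2 changes of 3.75 ± 0.08, 2.73 ± 0.09 and 4.50 ± 0.08. ATF3, a stress-induced repressor of several cytokine genes, averaged 33.8 ± 1.88, 14.7 ± 1.46, 65.4 ± 0.915 and 4.04 ± 0.459 CPM in the same groups, with log2 changes of 3.06 ± 0.11, 1.86 ± 0.13 and 4.02 ± 0.10. In PANC1 11, 8 and 11 of the 14 rose and 2, 5 and 2 fell, with median log2 changes of 1.34, 0.74 and 1.38. ATF3 averaged 405 ± 6.34, 85.5 ± 2.06, 609.6 ± 12.8 and 7.84 ± 0.995 CPM there, with log2 changes of 5.68 ± 0.06, 3.44 ± 0.07 and 6.27 ± 0.06.

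Of 12 genes for factors that destabilize or stabilize cytokine mRNAs in BXPC3, 4, 4 and 3 rose and 7, 6 and 8 fell with SR4, lonidamine and the combination. ZFP36, tristetraprolin, which speeds decay of cytokine mRNAs, averaged 48.8 ± 3.36, 63.8 ± 1.20, 94.5 ± 3.90 and 35 ± 0.419 CPM with SR4, lonidamine, the combination and vehicle (SD, n = 3 each) and rose by 0.48 ± 0.06, 0.87 ± 0.06 and 1.43 ± 0.06 log2. HNRNPD, the decay factor AUF1, fell, with log2 changes of -1.09 ± 0.05, -1.03 ± 0.05 and -1.28 ± 0.05. In PANC1 4, 2 and 3 of the 12 rose and 6, 7 and 6 fell. Of 8 genes for processing and release of interleukin-1 in BXPC3, 1, 2 and 1 rose and 6, 5 and 6 fell. CASP4, an inflammatory caspase, rose by 0.50 ± 0.05, 0.75 ± 0.05 and 1.08 ± 0.05 log2, and CAPN1, a calpain that can cleave the interleukin-1 alpha precursor, fell, with log2 changes of -0.47 ± 0.04, -0.66 ± 0.04 and -0.78 ± 0.04. In PANC1, of 6 tested, 0, 2 and 0 rose and 4, 3 and 5 fell.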

How the data were processed

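Bulk RNA-seq of 24 libraries was analysed, 3 for each of 8 groups. The deposited tables hold whole-number read counts per gene, 1 table per line. The submitters' processing notes name STAR 2.7.8a, Partek, DESeq2 and GRCh38, without their roles; the sources used here do not give the counting tool, strand setting or annotation release. The members and gene lists were chosen with earlier results of these data known.

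Counts were tested with edgeR 4.0.16 in R 4.3.3 (quasi-likelihood test, TMM scaling, genes kept by a minimum count of 10), with 4 groups of a line in 1 fit and, between lines, all 8. Kept genes numbered 12920 in BXPC3, 12514 in PANC1 and 13930 over both. P-values were adjusted by Benjamini-Hochberg over all genes tested, with a threshold of 0.05. SE is the unshrunken log2 coefficient divided by the square root of F. CPM used TMM-scaled totals of kept genes. An exact permutation test of 3 libraries against 3 cannot go below 0.1 and was not used.

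One SR4 library of BXPC3 is titled with a number that its column does not carry, so it is called unnumbered. Replicates of a group differed by more than sampling noise. All members are described. From each list a rule chose up to 3 genes per comparison with vehicle, those past the threshold with the smallest adjusted p and a mean log2 CPM of at least 2. The list genes described are some of those it chose, picked with their values known, and each is given for all 3 treatments of the line. Promoter windows are from RefSeq on GRCh38.p14, and identities came from Biopython 1.88. The scripts were tested on simulated data. Alternatives were DESeq2 size factors, total counts, the DESeq2 1.42.0 Wald test, no low-count filter, a replicate block, only the 2 groups compared, and leaving out each library.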

Additional observations from a re-analysis of the deposited data

Results flagged for a closer look

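The responses of 4 members differed between the lines by a test of the difference itself, PANC1 minus BXPC3, in the quasi-likelihood test of edgeR, adjusted by Benjamini-Hochberg over all genes. For SR4 the difference was 2.37 log2 for CXCL8, 0.83 for NFKBIA, 0.78 for CXCL1 and 3.55 for IL6. The IL6 value rests on 5 counts in PANC1 with SR4 and 0 with vehicle and depends on the prior count; its call was lost with DESeq2 size factors (adjusted p = 0.05078), the DESeq2 Wald test (0.08613) and no low-count filter (0.05779). For lonidamine it was 1.70 log2 for CXCL8, 0.88 for NFKBIA and 0.46 for CXCL1. The CXCL1 call for lonidamine was lost with DESeq2 size factors (adjusted p = 0.08123), the DESeq2 Wald test (0.1047) and no low-count filter (0.08394), and in most fits without a single library of those groups. For the combination it was 1.43 log2 for CXCL8. With library totals scaled within each line, the vehicle level of CXCL8 in PANC1 was 0.00523 of that in BXPC3. The part of this gap in the differences was not tested.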

How the results depend on the processing

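Over 98 results recomputed 1281 times under the alternatives, 1227 recomputations stayed on their side of the threshold, 49 lost the call and 5 gained one. Where either fit made a call, 0 changed direction. Changes of direction without a call in either fit were not counted. Between the lines, where members without a call were not among these results, 3 further calls were gained without single libraries, CXCL3 for the SR4 response without PANC1 vehicle replicate 1 (adjusted p = 0.04398, edgeR quasi-likelihood test) and CXCL2 in a pair of fits given next. The number of members called stayed within 1.5 times its value in each comparison but the combination response between PANC1 and BXPC3. There 1 member was called, and 1 to 2 when single libraries were left out, the second being CXCL2 without PANC1 vehicle replicate 1 (adjusted p = 0.03977, edgeR quasi-likelihood test) or replicate 3 (0.04127). With SR4 in BXPC3 the count was 9, and 7 to 9 without single libraries, with IL6 and IL1B as the changing calls. Total counts without TMM took IL1B with SR4 in BXPC3 to an adjusted p of 0.0535, and CXCL5 and IL6 passed for the combination against SR4 (0.007576 and 0.03741). With only the 2 groups compared, NFKBIA passed for the combination against lonidamine in BXPC3 (0.04661). The calls gained between the lines rest on few counts, since CXCL3 and CXCL2 each had at most 2 in any PANC1 library. The causes of these changes were not tested.

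Libraries of the same replicate number were no more alike than others. Between libraries of the same number, the correlation of deviations ran between -0.41 and 0.18 over 15 pairs in BXPC3. In PANC1 it ran between -0.40 and 0.19 over 18 pairs. Between different numbers it ran between -0.26 and 0.39, over 39 pairs in BXPC3 and 36 in PANC1. Deviations were taken from means of 3 libraries, which ties them together, so these values do not decide whether the libraries were paired. With the replicate number as a block, 7 members were called with SR4 in BXPC3, where IL6 had an adjusted p of 0.2103 and IL1B 0.2145 in edgeR's quasi-likelihood test, and 2 for the lonidamine response between lines, where CXCL1 had 0.05521. In PANC1 counts limited precision, with 7 members at no more than 3 counts in any library.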
